A study of Macaca fascicularis and Mus musculus with 492 samples.

Results

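The annexin and S100 genes of the cynomolgus monkey were followed through single cells of embryos before and after implantation and of embryonic stem cell (ESC) cultures. The members were all rows of the monkey expression table whose symbol is ANXA with a number or starts with S100. This gave 29 genes of 28797 rows with a value, 11 by the annexin symbol and 18 by the S100 symbol. Of these, 27 matched a gene in the RefSeq annotation of the T2T-MFA8v1.1 assembly by their gene identifier. By their names, 2 of the 29 belong to neither protein family: ANXA2R encodes an annexin A2 receptor and S100PBP a protein that binds S100P. The families were chosen with the contrast of late against early epiblast in view, in which S100P and ANXA8 were among the leading falls. That contrast is therefore described without a test, and tests are given only for other comparisons. Those comparisons reuse its early or late epiblast values, so their tests, above all of S100P and ANXA8, are not independent of that choice.

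Annexins are calcium-dependent proteins that bind acidic phospholipids through a repeated core domain. They link membranes to the cortical cytoskeleton and take part in vesicle traffic and in the repair of torn plasma membrane. S100 proteins are small calcium-binding proteins of the EF-hand type that act as dimers, and several bind the amino-terminal tail of an annexin. In epithelia and in the trophoblast of the placenta, members of both families are well known at the apical membrane and at cell contacts.

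The monkey samples were 421 single cells of Macaca fascicularis, 390 from embryos of embryonic day 6 (E06) to day 17 (E17) and 31 from ESC cultures, profiled with SC3-seq, which counts the 3′ ends of polyadenylated transcripts. Whole embryos were dissociated before implantation, whereas after implantation a hand-dissected fragment with the epiblast, amnion, hypoblast and yolk sac endoderm was used, so what trophoblast was sampled there is not given. The cultures were the lines CMK6 and CMK9 on mouse embryonic feeders (14 and 8 cells) and CMK6 without feeders (9 cells), each a lone culture. Values are RPM, the reads of a gene scaled to the total reads of its cell, and a level below is the mean over cells of log2(RPM + 1) for a class of cells on a day, or for a culture. Levels are compared between classes and never between genes.

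The embryo cells were clustered without the 29 members, and clusters were named from fixed marker genes, which gave epiblast-like, hypoblast-like, trophectoderm-like, extraembryonic-mesenchyme-like and gastrulating-like classes. A cluster of 17 cells from E13 and E14 led by SPP1, T and HAS2, and another of 32 cells, nearly all from E06, led by DPRX and SPIC, met no naming rule and stayed unnamed. The labels name no embryo and no sex, so the class on a day, or the ESC culture, stood as the replicate unit. These units hold between 5 and 37 cells each. The main fit estimated the spread of a gene over all units together. Its p-values therefore do not measure only the spread between the days compared. They also take in spread between days of other classes and between ESC cultures, which differ in line and feeder condition. Where few days were compared, much of the spread came from other groups. The estimated depth per cell had a median of 1879413 reads and ranged from 166753 to 4491536. The highest correlation between any pair of cells was 0.948, so no cell was entered again under another name. Titles also carry a code, such as MS08, whose meaning the labels do not give, and values within a code are set beside the results.

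Of the 29 members, 16 reached a level of 2 in at least 2 of the 20 units that entered the tests: ANXA1, ANXA2, ANXA3, ANXA4, ANXA5, ANXA7, ANXA8, ANXA9, ANXA10, S100A6, S100A10, S100A13, S100A14, S100A16, S100P and S100PBP. The other 13 stayed below that level. Of the members only ANXA2 was above 0 in all 421 cells, while S100A10 and ANXA7 were above 0 in 420 cells each and S100PBP in 416. The heat map of levels sets these 16 genes out over the classes, days and cultures.

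**Figure D1:**
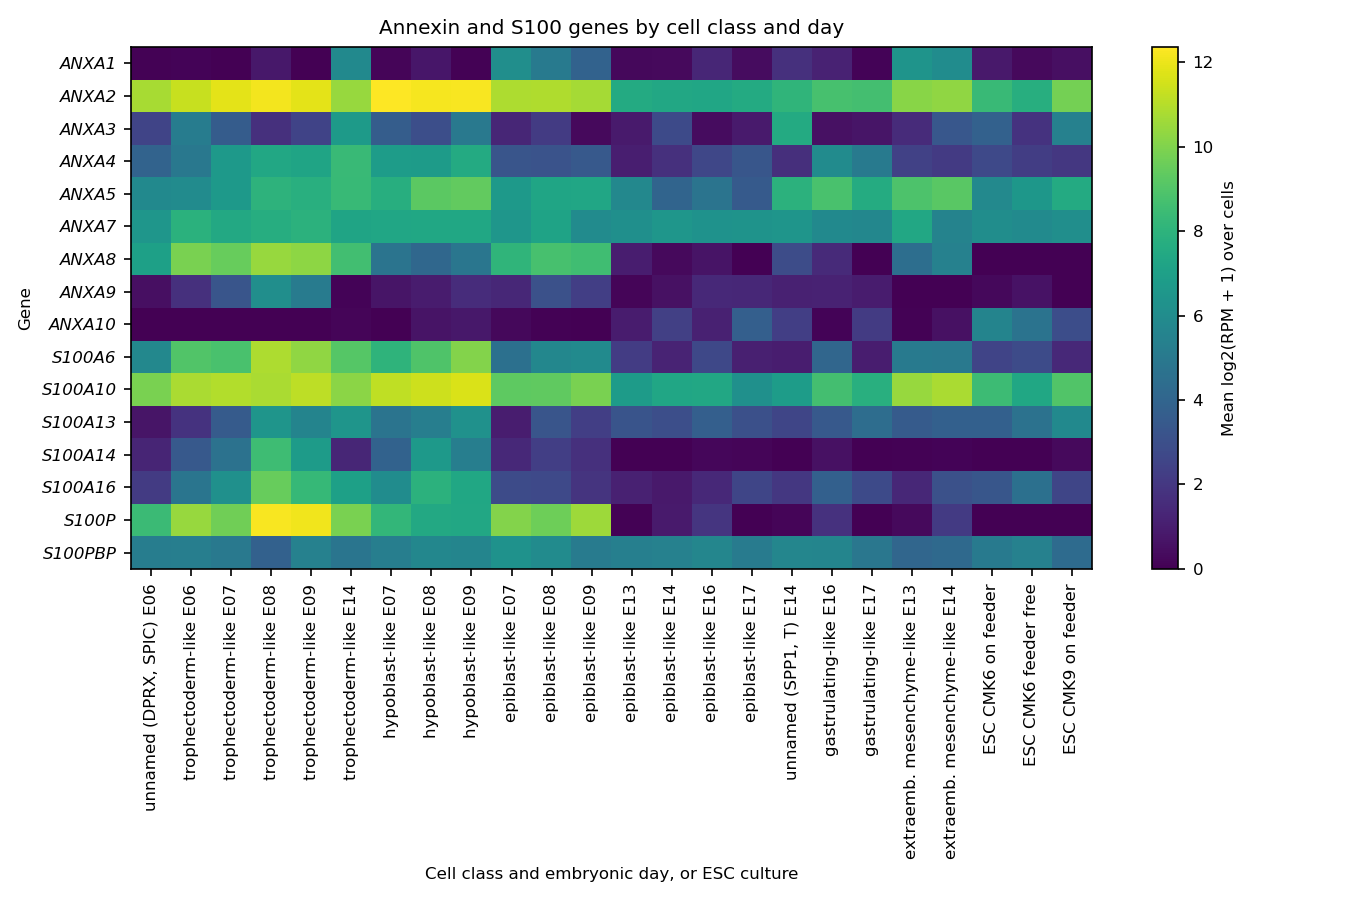
Mean log2(RPM + 1) over cells (colour) of the 16 members that passed the filter (vertical axis), in 24 classes by day and ESC cultures (horizontal axis). S100P and ANXA8 are bright in trophectoderm-like cells and in epiblast-like cells of E07 to E09 and dark in epiblast-like cells of E13 to E17 and in ESC cultures.

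S100P, a calcium-binding protein abundant in placenta, separated epiblast-like cells before and after implantation by the widest margin of any member. In epiblast-like cells its level was 10.04 on E07, 9.64 on E08 and 10.57 on E09, against 0.05 on E13, 0.89 on E14, 1.89 on E16 and 0.04 on E17. The 2 sets of days did not overlap, and their means were 10.08 ± 0.47 (SD, n = 3 days) and 0.72 ± 0.88 (SD, n = 4 days), a difference of -9.37 on the log2(RPM + 1) scale. On E08 the 24 cells ranged from 128 to 3337 RPM with a median of 916 RPM. On E13, 23 of 24 cells were at 0, and on E17, 34 of 35 were. No early epiblast-like cell was at 0, so the early level did not rest on a few cells.

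Among the other cells before implantation, S100P was present throughout. Its level was 8.20, 7.45 and 7.42 in hypoblast-like cells of E07, E08 and E09, and 9.66, 12.22 and 12.09 in trophectoderm-like cells of those days. Trophectoderm-like cells of E06 stood at 10.47 and those of E14 at 9.89, the latter a day on which epiblast-like cells were at 0.89. The unnamed E06 cluster led by DPRX and SPIC was at 8.43. Trophectoderm-like cells of E07 differed widely among themselves, from 13.5 to 7013 RPM with a median of 2119 RPM, whereas those of E08 kept within 2164 to 9844 RPM. In ESC cultures S100P was 0.03 in CMK6 on feeders and 0.00 in the other cultures, so the cultures lay with the late and not with the early epiblast-like days.

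ANXA8, an annexin known from placenta and other epithelia, followed nearly the same order. Its epiblast-like level was 8.09, 8.77 and 8.56 on E07, E08 and E09 and then 0.98, 0.34, 0.67 and 0.02 on E13, E14, E16 and E17. The means of 8.47 ± 0.35 (SD, n = 3 days) and 0.50 ± 0.41 (SD, n = 4 days) differed by -7.97 without overlap of the days. It was listed at 0 in every cell of the 3 ESC cultures. Hypoblast-like cells lay below early epiblast-like ones, at 4.76, 4.15 and 4.86, and trophectoderm-like cells of E06 to E09 were at 9.89, 9.47, 10.43 and 10.27. In extraembryonic-mesenchyme-like cells ANXA8 was at 4.45 on E13 and 5.42 on E14, where single cells ran from 0 to 3284 RPM. On E14 the 12 such cells with the code MS09 had a median of 112 RPM, and the 2 with MS13 were at 0. This class joins clusters of 17 and 16 cells, so its mean may describe few single cells. S100P stood at 0.30 and 2.09 in extraembryonic-mesenchyme-like cells of E13 and E14. Over the 20 units in the tests, S100P and ANXA8 had a Pearson r of 0.924 and a Spearman rho of 0.943, a description over units that share days and title codes.

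**Figure D2:**
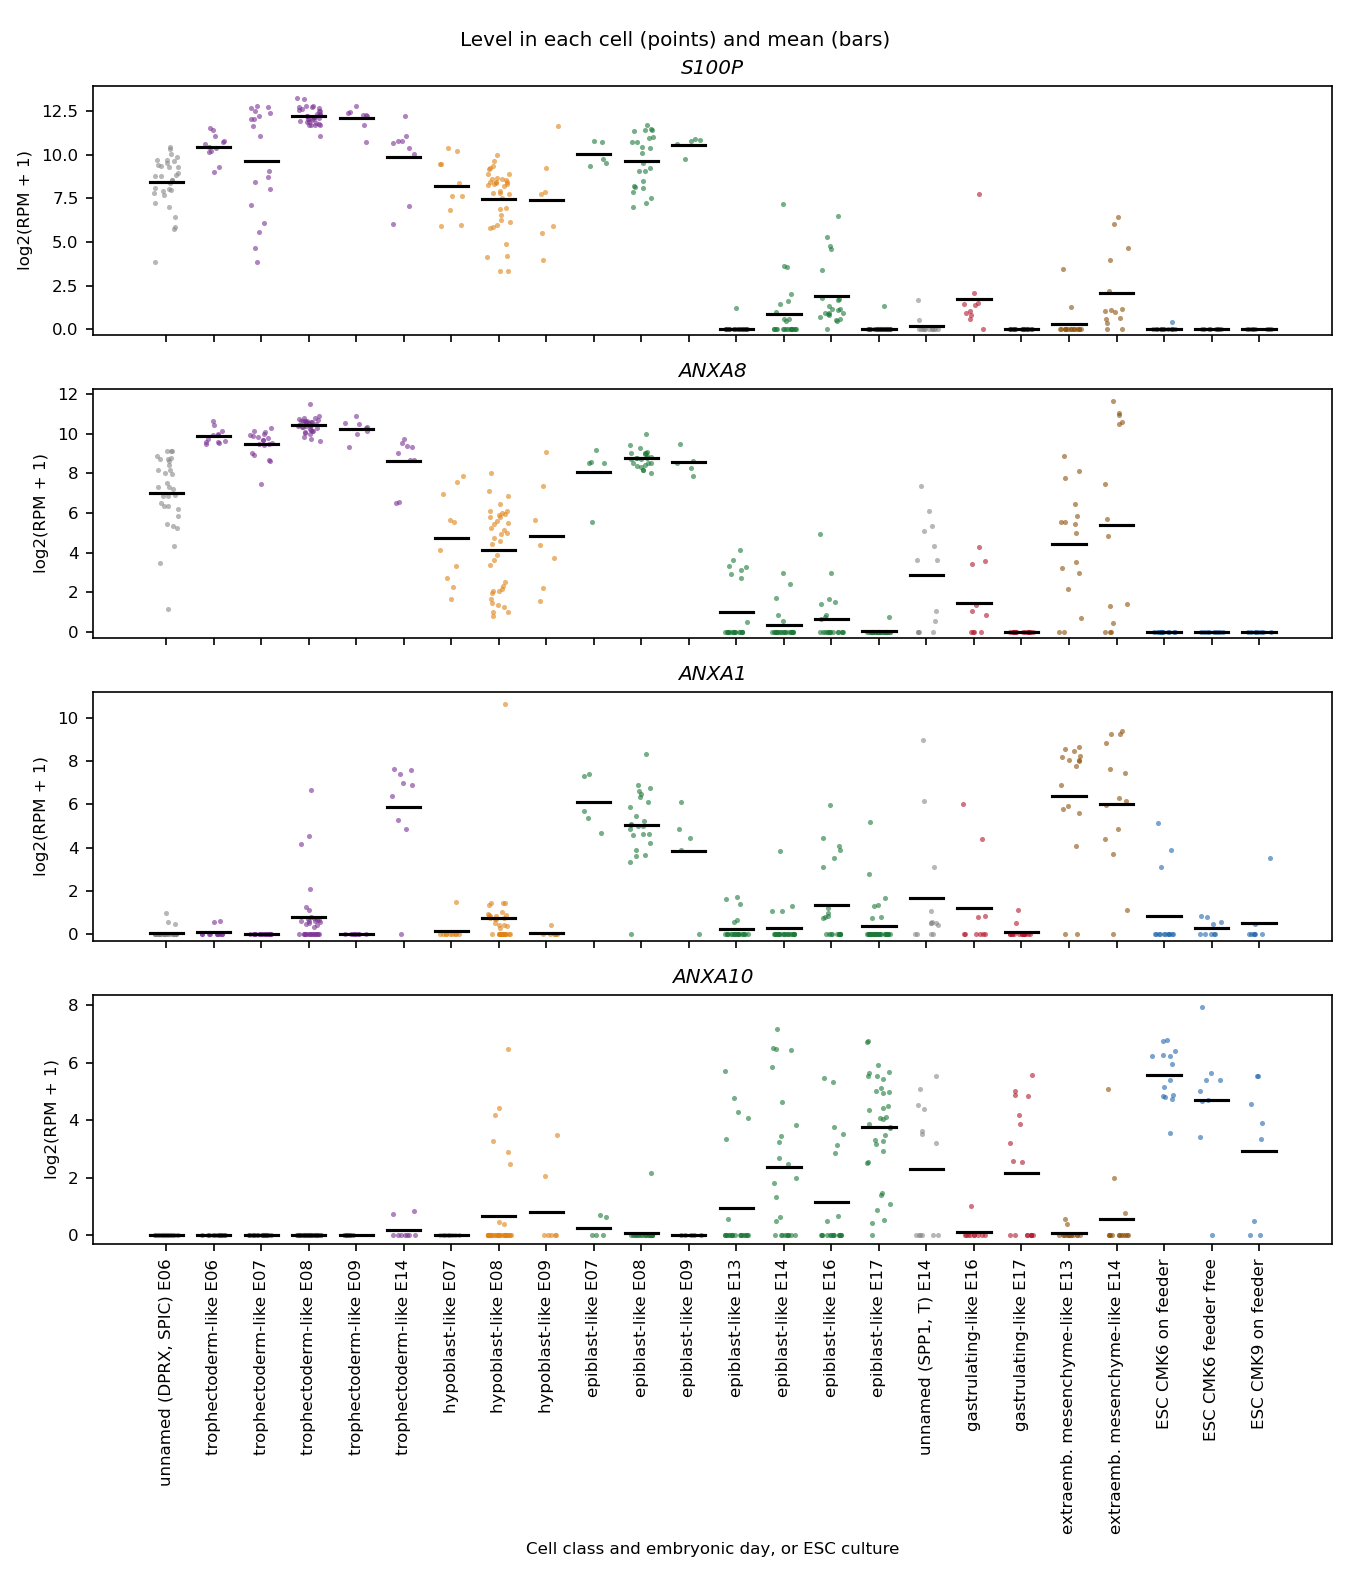
log2(RPM + 1) of S100P, ANXA8, ANXA1 and ANXA10 in each cell (points) and the mean (bars), by class and day or ESC culture along the horizontal axis. S100P and ANXA8 are high in trophectoderm-like, early epiblast-like and unnamed E06 cells, and S100P is high in hypoblast-like cells too. ANXA1 is high in early epiblast-like cells, extraembryonic-mesenchyme-like cells and trophectoderm-like cells of E14. ANXA10 is above 0 mainly in late epiblast-like cells and ESC cultures.

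The 10 trophectoderm markers were unlike each other in early epiblast-like cells. CDX2 was between 0.95 and 1.76 there over E07 to E09 against 4.78 to 6.63 in trophectoderm-like cells, and GATA2 was between 2.33 and 3.34 against 8.61 to 9.66. GATA3, ENPEP and PGF were lower there as well, and KRT18 (9.15 to 9.77 against 11.68 to 12.22) and DAB2 (7.78 to 8.11 against 8.88 to 9.85) were high in both. TFAP2C was at 7.56 to 8.16 against 8.27 to 8.33, TEAD4 overlapped, and KRT7 was higher in the early epiblast-like cells, at 4.83 to 6.13 against 2.57 to 4.52. The summed level of the 10 trophectoderm markers had a median per cell of 1327 to 1525 RPM in early epiblast-like units, against 5483 to 8456 RPM in trophectoderm-like units of the same days and 131 to 238 RPM in late epiblast-like units. Their part in the S100P and ANXA8 levels was not tested.

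Low S100P values after implantation moved with the title code. Among epiblast-like, mesenchyme-like and gastrulating-like cells of E13 to E17, 51 of 53 cells with the codes MS08 and MS09 were above 0, at a median of 1.28 RPM. With the codes MS10, MS11, MS13 and MS61, 5 of 110 such cells were above 0, at a median of 0 RPM. Estimated median depths were close, at 1730811 and 1499616 reads per cell. The codes MS08 and MS09 also hold cells with much S100P, the highest at 6470 and 5149 RPM, while the highest cell was at 1.51 RPM in MS10, 9.85 RPM in MS61 and 132 RPM in MS13. The part of the code in these low values was not tested. All epiblast-like cells of E16 carry MS08 or MS09, so day and code cannot be told apart there. Without these codes, an alternative chosen after the values were seen, the epiblast-like S100P level on E14 was 0.03 instead of 0.89, and that on E13 and E17 was unchanged, as no cell there carries them. No E16 cell remained, and on E07 3 cells did.

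**Figure D3:**
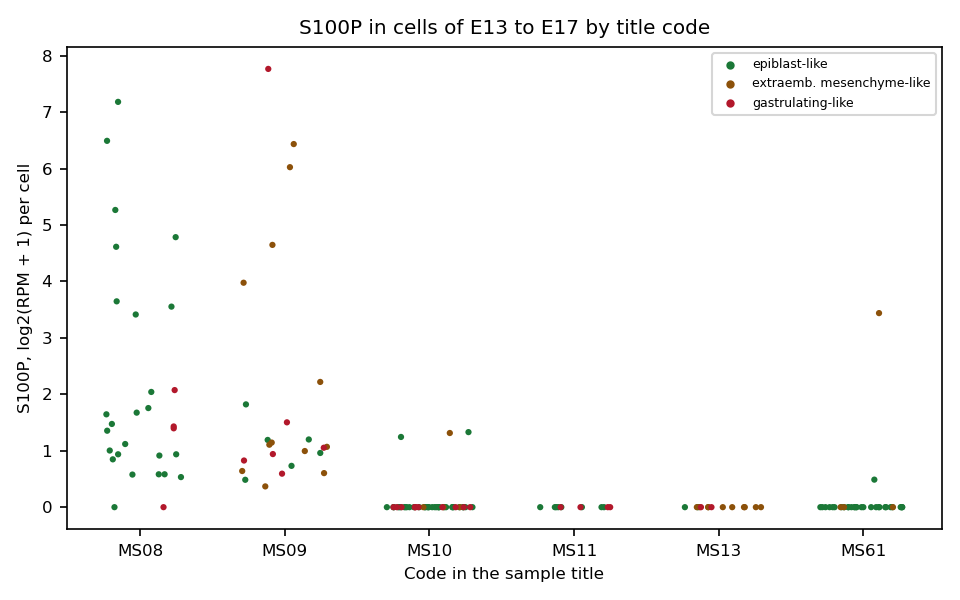
log2(RPM + 1) of S100P in each epiblast-like, extraembryonic-mesenchyme-like and gastrulating-like cell of E13 to E17 (vertical axis) by the code in the sample title (horizontal axis). Of the cells with MS08 or MS09, 51 of 53 lie above 0, against 5 of 110 cells with the other codes.

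The remaining members moved in both directions between early and late epiblast-like days. ANXA1, an annexin that binds S100A11 and takes part in resolving inflammation, was at 6.09, 5.07 and 3.86 on E07 to E09 and at 0.25, 0.29, 1.35 and 0.40 on E13 to E17, a difference of -4.44. Its single cells on E08 ran from 0 to 315 RPM with a median of 31.5 RPM. S100A6, also called calcyclin, differed by -3.59, ANXA2 by -3.36, ANXA5 by -2.58, S100A10 by -2.56 and S100A14 by -1.69, all without overlap of the days. ANXA10 was the member whose late days all lay above the early ones: it was at 0.26, 0.09 and 0.00 on E07 to E09 and at 0.95, 2.36, 1.14 and 3.75 on E13, E14, E16 and E17.

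By count, 8 members were lower and 1 higher on all late days than on all early ones, and 7 overlapped, namely ANXA3, ANXA4, ANXA7, ANXA9, S100A13, S100A16 and S100PBP. Over the 12087 genes tested, 42.1% did not overlap, 26.4% lower and 15.8% higher, and since the families were chosen on this contrast nothing is read from the counts. The median difference was -1.52 for the 16 members and -0.21 for all genes. At the narrow end of this order lay ANXA3, with a difference of -0.03 and single days between 0.30 and 2.78. Its late levels differed by title code. On E14 every epiblast-like cell with MS08 or MS10 was at 0, while cells with MS61 ran from 1.89 to 7.36. Without MS08 and MS09 the E14 level was 4.34. On E17 it was 3.12 in cells with MS11 and 0.23 in cells with MS10. The part of the code in the ANXA3 levels was not tested.

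ANXA2 and S100A10 form a heterotetramer, in which the S100A10 dimer joins a pair of annexin A2 molecules at the membrane. Both followed the same order of classes. ANXA2 was highest in hypoblast-like cells, at 12.36, 12.18 and 12.24 on E07 to E09, then in trophectoderm-like cells at 11.86, 12.14 and 11.86, then in early epiblast-like cells at 10.85, 10.88 and 10.70. It was at 10.17 and 10.29 in extraembryonic-mesenchyme-like cells and at 7.55, 7.42, 7.30 and 7.55 in late epiblast-like cells. S100A10 was at 11.19, 11.4 and 11.64 in hypoblast-like, at 10.94, 10.78 and 11.11 in trophectoderm-like, and at 9.31, 9.33 and 9.88 in early epiblast-like cells. It was at 10.48 and 10.79 in extraembryonic-mesenchyme-like and at 6.80, 7.34, 7.42 and 6.22 in late epiblast-like cells. The exception to the shared order was the mesenchyme, which lay below early epiblast in ANXA2 and above it in S100A10. Over the 20 units r was 0.945 and rho 0.931, given as a description. ANXA2R did not track ANXA2 (r = -0.04 over the same units) and stayed at or below 1.33 in every unit.

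**Figure D4:**
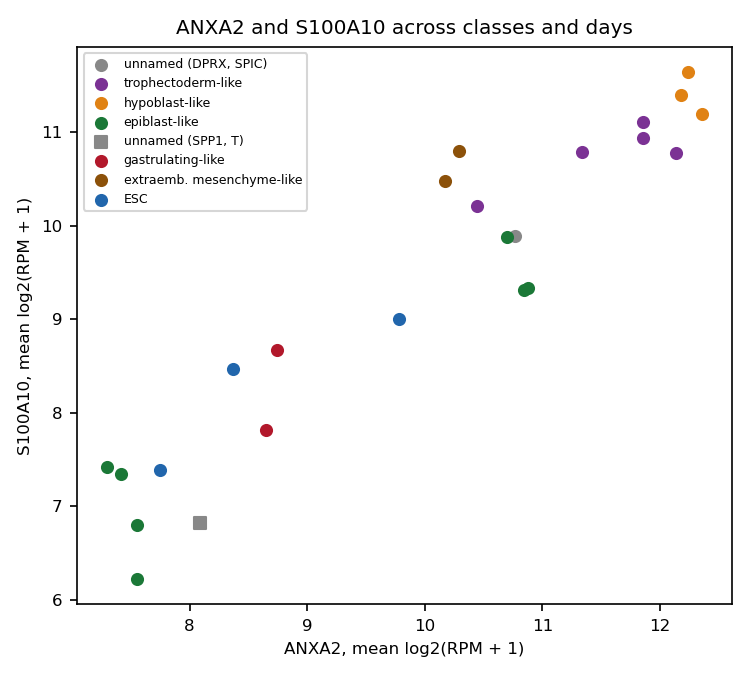
Mean log2(RPM + 1) of S100A10 (vertical axis) against ANXA2 (horizontal axis), a point for each class on a day or ESC culture. Late epiblast-like days lie at the lower left, with ANXA2 between 7.30 and 7.55, and hypoblast-like days at the upper right, with ANXA2 between 12.18 and 12.36.

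Hypoblast-like cells, the lineage that forms yolk sac endoderm, were compared with epiblast-like cells of the same 3 days, which asks how the inner cell mass lineages differ. Of the 16 members, 9 were higher and 3 lower at an adjusted p under 0.05 (limma on unit means, two-sided, Benjamini-Hochberg over 12087 genes). Over all genes 23.7% were called, 10.8% higher and 12.9% lower, and the members' median difference was 1.58 against -0.11 for all genes.

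Among the S100 genes S100A16, which is found in many epithelia, was higher by 4.63 ± 0.69 (SE, limma adjusted p = 2.8e-05). It was at 6.00, 7.93 and 7.35 in hypoblast-like cells of E07 to E09 and at 2.83, 2.73 and 1.84 in epiblast-like cells. S100A6 was higher by 3.62 ± 0.67 (limma adjusted p = 0.00035), with 8.02, 8.97 and 10.06 against 4.54, 5.72 and 5.93. S100A14 was higher by 3.48 ± 0.67 and S100A13, which takes part in the release of FGF1 and IL1A, by 3.25 ± 0.65 (limma adjusted p = 0.00052 and 0.00071). For S100A14 the days were 3.91, 6.66 and 5.27 against 1.42, 2.27 and 1.71. For S100A13 they were 4.76, 5.29 and 6.23 against 0.99, 3.25 and 2.29. The days of all 4 genes kept apart. S100A10 was higher by 1.90 ± 0.33 (limma adjusted p = 0.00015).

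Among the annexins ANXA4, an annexin of secretory epithelia, was higher by 3.77 ± 0.37 (limma adjusted p = 1.1e-07), with 6.84, 6.81 and 7.54 in hypoblast-like cells against 3.25, 3.17 and 3.46. ANXA2 was higher by 1.45 ± 0.29 (limma adjusted p = 0.00071). ANXA3 was higher by 2.60 ± 0.76 and ANXA5, the phosphatidylserine-binding annexin used to stain dying cells, by 1.71 ± 0.51 (limma adjusted p = 0.016 and 0.017). The ANXA3 days were 3.67, 2.98 and 4.97 against 1.35, 2.16 and 0.30, and the ANXA5 days 7.76, 9.23 and 9.39 against 6.67, 7.24 and 7.32.

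The 3 lower members were ANXA1, ANXA8 and S100P. ANXA1 differed by -4.69 ± 0.47 (limma adjusted p = 1.5e-07), at 0.15, 0.75 and 0.06 in hypoblast-like cells. ANXA8 differed by -3.89 ± 0.42 (limma adjusted p = 3.8e-07) and S100P by -2.40 ± 0.62 (limma adjusted p = 0.0063). Within the code MS02 the differences were 5.33 for S100A16, 3.73 for ANXA4, 0.82 for ANXA3, -4.29 for ANXA1, -4.75 for ANXA8 and -2.22 for S100P, and within MS03 they were 3.87, 3.74, 3.32, -4.89, -3.40 and -2.50 in that order. ANXA3 lost its call without epiblast-like E09 (2.12, limma adjusted p = 0.089) or hypoblast-like E09 (2.05, limma adjusted p = 0.099), and ANXA5 without epiblast-like E07 (1.51), hypoblast-like E08 (1.49) or hypoblast-like E09 (1.42), with limma adjusted p of 0.073, 0.079 and 0.098. S100P lost it on the log2 of the mean RPM (-1.56, limma adjusted p = 0.30).

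Trophectoderm-like cells, the precursors of placental trophoblast, were set against the same epiblast-like days. Here 10 members were higher and 1 lower, against 22.1% of all genes called, 9.51% higher and 12.6% lower. The median difference was 1.38 for the 16 members and -0.12 for all genes. Since this comparison and the hypoblast one share the epiblast-like days, their values are given side by side and not as a joint count.

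S100A16 was higher by 5.52 ± 0.69 (limma adjusted p = 3.1e-06), at 6.20, 9.50 and 8.26 on E07 to E09. S100A14 was higher by 4.85 ± 0.67 and S100A6 by 4.59 ± 0.67 (limma adjusted p = 1.2e-05 and 2.4e-05). S100A14 stood at 4.68, 8.51 and 6.77 and S100A6 at 8.80, 10.84 and 10.31. For each of these 3 genes E07 was the lowest of the trophectoderm-like days and E08 the highest, and all 3 days lay above every epiblast-like day. S100A13 was higher by 3.01 ± 0.65 (limma adjusted p = 0.0015), at 3.55, 6.44 and 5.58. S100A10 was higher by 1.44 ± 0.33 (limma adjusted p = 0.0024).

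ANXA4 was higher by 3.78 ± 0.37 (limma adjusted p = 1e-07), at 6.64, 7.39 and 7.20, beside a difference of 3.77 in hypoblast-like cells. ANXA9 was higher by 2.60 ± 0.53 (limma adjusted p = 0.00082), at 3.25, 6.13 and 5.13 against 1.36, 3.07 and 2.28 in epiblast-like cells, whereas in hypoblast-like cells it was at 0.70, 0.94 and 1.59 and its difference of -1.16 did not pass (limma adjusted p = 0.12). ANXA8 was higher by 1.58 ± 0.42, ANXA7 by 1.16 ± 0.34 and ANXA2 by 1.14 ± 0.29 (limma adjusted p = 0.0074, 0.016 and 0.0056). ANXA7, which was above 0 in nearly every cell, had days of 7.47, 7.70 and 7.96 against 6.49, 7.18 and 5.98. ANXA1 was the lower member, with a difference of -4.74 ± 0.47 (limma adjusted p = 1.3e-07), and was listed at 0 in all 19 trophectoderm-like cells of E07 and all 8 of E09. On E08, where all trophectoderm-like cells carry the code MS02, 19 of 34 were above 0 at a median of 0.36 RPM, and the part of the code in these low values was not tested.

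S100P itself, at 1.24 ± 0.62, did not pass against early epiblast (limma adjusted p = 0.17). It was 2.58 higher within the code MS02 and -0.27 within MS03, and it passed without trophectoderm-like E07, the day with the widest range of cells, or with a pseudocount of 10 RPM. Within MS02 and MS03 the other differences were 6.88 and 4.17 for S100A16, 6.34 and 3.47 for S100A14, 5.20 and 3.66 for S100A6, 4.31 and 3.41 for ANXA4, and -4.22 and -4.96 for ANXA1. ANXA7 lost its call without epiblast-like E09 (0.88, limma adjusted p = 0.11) or trophectoderm-like E09 (1.04, limma adjusted p = 0.076), and ANXA8 without trophectoderm-like E08 (1.4, limma adjusted p = 0.053) or on the log2 of the mean RPM (1.47, limma adjusted p = 0.14). ANXA9 lost it in a fit of these groups alone (limma adjusted p = 0.053), and ANXA7 also without a filter (limma adjusted p = 0.063).

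Trophectoderm-like cells of E06 and of E14 were outside the test. The 12 cells of E06 were at 4.79 for S100A16, 3.45 for S100A14 and 9.02 for S100A6. The 9 cells of E14, led by other trophoblast genes such as HSD3B1 and CDKN1C, kept S100A16 at 7.0 and S100A6 at 9.10 while S100A14 was at 1.33 and ANXA9 at 0.11. ANXA1 stood at 5.89 and ANXA3 at 6.73 in these E14 cells. These E14 cells, picked out after their values were seen, thus lay below all trophectoderm-like days of E07 to E09 in S100A14 and ANXA9 and above them in ANXA1 and ANXA3. The difference was not tested. Day, cell cluster and title code cannot be told apart in it, as these E14 cells carry MS09 or MS13 and those of E07 to E09 carry other codes. Their cluster also met the naming thresholds for 5 of 10 extraembryonic mesenchyme markers, COL3A1, COL1A1, LUM, DCN and VIM. The summed level of the 10 markers had a median of 101 RPM in these E14 cells, against 29699 RPM in mesenchyme-like cells of E14. The part of such transcripts in the ANXA1 level was not tested.

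Extraembryonic-mesenchyme-like cells, which are rich in collagen transcripts, were compared with epiblast-like cells of E13 and E14. Of the members, 6 were higher and 0 lower, against 26.5% of all genes called, 12.2% higher and 14.3% lower. This compared 2 days against 2, with the spread taken from the fit of all units. At an unadjusted p under 0.05, 1 member was lower in limma, S100PBP at -1.24 ± 0.49. With the embryonic day as replicate block ANXA10 was a lower member, at -1.34 ± 0.34 (limma adjusted p = 0.0077), against a limma adjusted p of 0.22 without it. The median difference was 0.79 for the 16 members and -0.13 for all genes.

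ANXA1 rose most, by 5.93 ± 0.58 (limma adjusted p = 6.6e-08), to 6.38 on E13 and 6.02 on E14 from 0.25 and 0.29. ANXA8 was higher by 4.28 ± 0.51 and ANXA5 by 4.16 ± 0.63 (limma adjusted p = 1.2e-06 and 2.5e-05). ANXA5 was at 8.92 and 9.18 against 5.78 and 4.01. S100A10 was higher by 3.57 ± 0.40, ANXA2 by 2.74 ± 0.35 and S100A6 by 3.32 ± 0.83 (limma adjusted p = 5.3e-07, 3.6e-06 and 0.0043). The S100A6 days were 5.07 and 5.02 against 2.19 and 1.25. Of the S100 genes called higher in both hypoblast-like and trophectoderm-like cells, S100A6 and S100A10 were thus called here too. The others gave no call: S100A13 differed by 0.58 ± 0.79, S100A14 by 0.09 ± 0.83 and S100A16 by 1.20 ± 0.84 (limma adjusted p = 0.65, 0.96 and 0.33). No title code held 5 cells of each class on these days, so no value within a code could be given. Without epiblast-like E14, S100A6 was at 2.86 (limma adjusted p = 0.056) and lost its call.

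Gastrulating-like cells, which express LHX1, EOMES and CER1, were compared with epiblast-like cells of E16 and E17. Here 4 members were higher and 0 lower, against 4.99% of all genes called, 1.99% higher and 3% lower, again from 2 days against 2. ANXA5 was higher by 4.09 ± 0.63 (limma adjusted p = 0.00024), at 8.80 and 7.60 against 4.74 and 3.48. ANXA4 was higher by 2.56 ± 0.45 (limma adjusted p = 0.0010), at 5.99 and 5.11 against 2.65 and 3.33. The pair S100A10 and ANXA2 was higher by 1.42 ± 0.40 and 1.27 ± 0.35 (limma adjusted p = 0.042 and 0.038), S100A10 at 8.66 and 7.81 and ANXA2 at 8.75 and 8.65. In each of these 4 genes both gastrulating-like days lay above both epiblast-like days, and at an unadjusted p under 0.05 limma gave 0 lower members too. With the embryonic day as replicate block, 1073 genes were called instead of 603, and ANXA10 was a lower member. ANXA10 differed by -1.31 ± 0.77 (limma adjusted p = 0.44) without the block and by -1.31 ± 0.34 (limma adjusted p = 0.028) with it, at 0.10 and 2.16 in gastrulating-like against 1.14 and 3.75 in epiblast-like cells of E16 and E17.

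Within the code MS09 the differences were 4.48 for ANXA5, 2.90 for ANXA4, 1.11 for S100A10 and 1.47 for ANXA2, and within MS10 they were 4.85, 2.12, 1.63 and 1.23. ANXA10 differed by -1.93 within MS09 and -2.45 within MS10. ANXA2 lost its call without any of the 4 days (1.14 to 1.4, limma adjusted p from 0.11 to 0.26) and S100A10 without epiblast-like E17 (0.82, limma adjusted p = 0.49) or gastrulating-like E16 (0.99, limma adjusted p = 0.33). In a fit of these groups alone ANXA4 and S100A10 lost it (limma adjusted p = 0.064 and 0.18), and S100A10 and ANXA2 lost it with a pseudocount of 10 RPM (limma adjusted p = 0.056 and 0.051) and without a filter (limma adjusted p = 0.17 and 0.16). Of all calls 39.8% were higher, a share that was 51.3% after quantile normalization and 65.3% on the log2 of the mean RPM. The median of all genes moved from -0.13 to -0.01 with quantile normalization, under which the 4 members stayed higher, ANXA5 by 4.11, ANXA4 by 2.73, S100A10 by 1.51 and ANXA2 by 1.35.

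The ESC cultures were compared with epiblast-like cells of E13 to E17, which asks how far a culture stands from the embryo. Here 6 members were higher and 0 lower, against 12.1% of all genes called, 9.76% higher and 2.29% lower. ANXA10 was higher by 2.34 ± 0.59 (limma adjusted p = 0.012), at 5.57 in CMK6 on feeders, 4.69 in CMK6 without feeders and 2.92 in CMK9, where E17 epiblast-like cells stood at 3.75. ANXA3 was higher by 2.44 ± 0.71 (limma adjusted p = 0.028), at 3.86, 1.79 and 5.41 in the same order. ANXA5 was higher by 2.15 ± 0.48 (limma adjusted p = 0.0054), at 5.81, 6.56 and 7.58. The cultures overlapped the late days in ANXA10 and ANXA3. In ANXA5 they did so by no day, but the lowest culture, at 5.81, lay just above epiblast-like E13 at 5.78. At an unadjusted p under 0.05 limma gave 0 lower members as well.

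S100A16 was higher by 2.01 ± 0.65 (limma adjusted p = 0.045), at 3.32, 4.59 and 2.60. S100A10 was higher by 1.34 ± 0.31 (limma adjusted p = 0.0064), at 8.47, 7.38 and 9.0, and ANXA2 by 1.18 ± 0.27 (limma adjusted p = 0.0065), at 8.37, 7.75 and 9.78. In S100A10 the feeder-free culture lay slightly below epiblast-like E16, so cultures and late days overlapped. In S100A16 CMK9, at 2.60, lay just above epiblast-like E17 at 2.56. CMK9 was the highest culture for ANXA2, S100A10, ANXA3 and ANXA5 and the lowest for ANXA10 and S100A16. With single cultures, line and feeder condition were not tested.

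These ESC calls depended on single cultures and days and on the scaling. Over all genes the median difference was 0.26, and it became -0.03 after quantile normalization, under which ANXA5 (1.87), S100A10 (1.21) and ANXA2 (1.09) kept their calls while ANXA10 (2.00), ANXA3 (2.14) and S100A16 (1.69) did not. The share of all calls that were higher was 81%, 52.4% after that normalization and 59.4% on the log2 of the mean RPM. Within the code MS11, CMK6 without feeders against E17 epiblast-like cells gave -1.33 for ANXA3 and -0.36 for ANXA2, the opposite direction, and 1.53 for ANXA10, 1.4 for ANXA5, 0.74 for S100A10 and 0.61 for S100A16. Without CMK9, ANXA3 was at 1.58, ANXA5 at 1.68 and S100A10 at 0.98 (limma adjusted p = 0.21, 0.051 and 0.065). Without CMK6 on feeders, ANXA10 was at 1.75, ANXA3 at 2.35 and S100A16 at 2.10 (limma adjusted p = 0.083, 0.081 and 0.085). S100A16 also lost its call without the feeder-free CMK6 culture (1.47) and without each epiblast-like day, with values from 1.72 to 2.30. ANXA3 lost it without epiblast-like E13, E16 or E17 (1.97, 2.32 and 2.56) and ANXA10 without E13 or E16 (1.99 and 1.69).

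Of the 8 fibroblast or feeder genes, 5 had a mean log2 level under 1 in each culture on feeders, against 2 in the feeder-free culture and 2 to 5 on the late epiblast-like days. COL3A1 was at 0.04 and 0.05 in CMK6 and CMK9 on feeders, LUM was at 0 in both and DCN at 0.03 and 0.07. COL1A1 was at 8.28 to 9.12 in the 3 cultures against 6.21 to 8.16 in late epiblast-like cells, and THY1 at 6.03 or above against 3.26 to 4.45. The summed level of the 8 genes had a median per cell of 762 and 516 RPM in CMK6 and CMK9 on feeders and 429 RPM in CMK6 without feeders, against 103 to 368 RPM on the late epiblast-like days. The part of feeder cells in the ESC results was not tested.

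**Figure D5:**
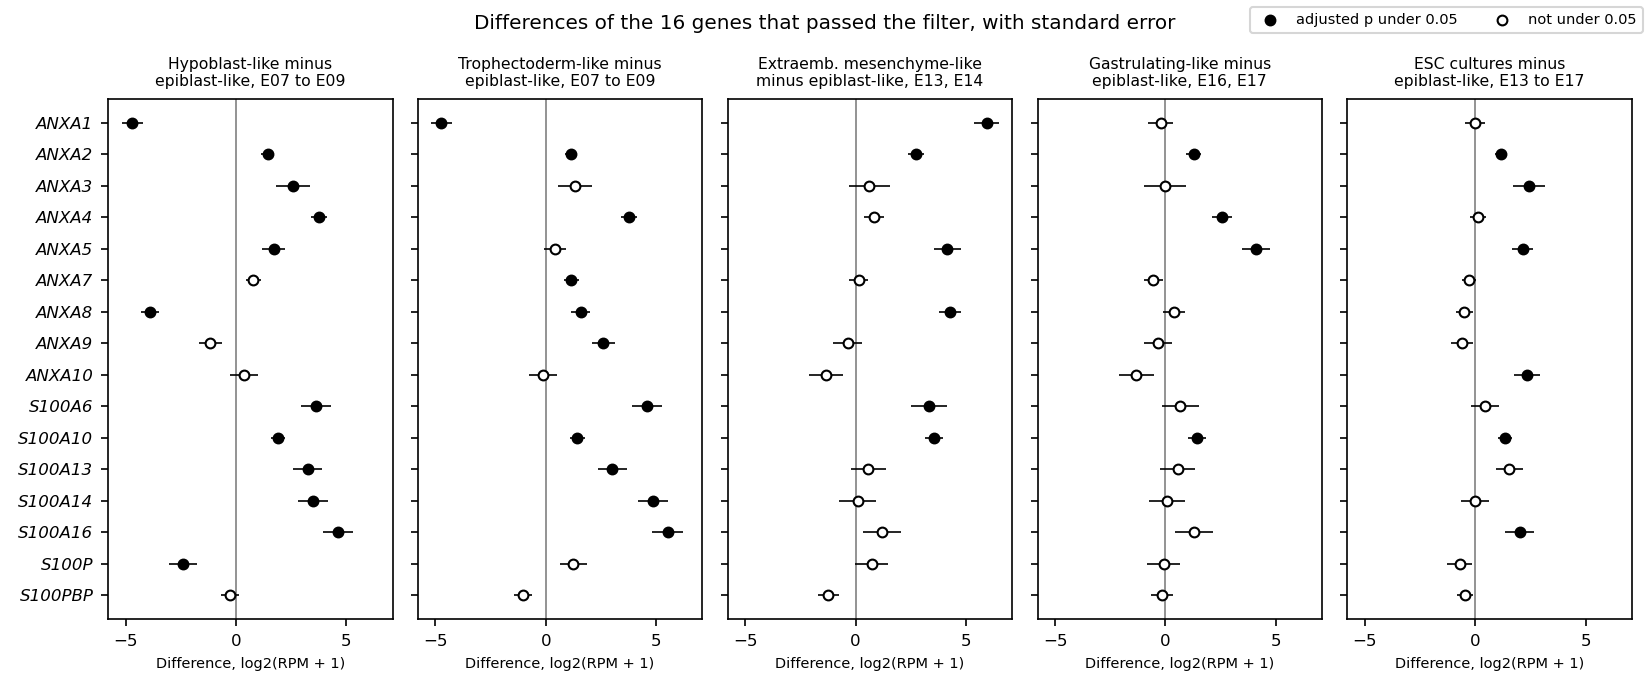
Difference on the log2(RPM + 1) scale (horizontal axes) with its standard error for the 16 members (vertical axis) in 5 comparisons, filled where the limma adjusted p was under 0.05. ANXA2 and S100A10 are filled and to the right of 0 in every panel, and ANXA1 lies near -4.7 in the hypoblast and trophectoderm panels and at 5.93 in the mesenchyme panel. Some panels share epiblast-like days, so they are not independent of each other.

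Rows whose symbol is only a locus number include 5 that the gene identifier gives as S100A1, S100A11, S100B, ANXA6 and ANXA11. They do not meet the symbol rule and are described apart. S100A11, the known partner of ANXA1, was higher by 3.42 ± 0.36 in hypoblast-like, 2.54 ± 0.36 in trophectoderm-like and 5.98 ± 0.44 in extraembryonic-mesenchyme-like cells. In gastrulating-like cells it was higher by 1.68 ± 0.44 and in ESC cultures by 3.29 ± 0.33 (limma adjusted p from 9e-10 to 0.026 over the 5). It did not follow ANXA1 across units (r = 0.14, rho = -0.09, n = 20), since hypoblast-like cells held S100A11 at 9.61, 9.50 and 9.72 with ANXA1 near 0. In the mesenchyme both were high, S100A11 at 8.74 and 8.56. ANXA6, an annexin with a doubled core, was higher in the 5 comparisons too, by 1.53 ± 0.34 to 4.02 ± 0.45 (limma adjusted p from 4.5e-07 to 0.0054). Some of the 5 share epiblast-like days, so they are not independent of each other. ANXA11 was higher by 0.85 ± 0.25 in trophectoderm-like cells (limma adjusted p = 0.017), S100A1 gave no call and S100B stayed at or below 0.23.

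The S100A genes lie together in primates, and in the T2T-MFA8v1.1 annotation S100A1, S100A2, S100A3, S100A4, S100A5, S100A6, S100A7, S100A13, S100A14 and S100A16 are 10 genes with no other annotated protein-coding gene between them. These neighbours had unlike levels. S100A6, S100A13, S100A14 and S100A16 were called in both blastocyst comparisons, while S100A2, S100A3, S100A4, S100A5 and S100A7 did not pass the filter. Across the units S100A14 and S100A16 had r = 0.919 but rho = 0.663 (n = 20), as S100A14 was near 0 in late units where S100A16 still varied. S100P, which lies outside this group, had r = 0.838 with S100A6 and 0.812 with S100A14.

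The 13 members under the filter were low almost everywhere. S100A12, a neutrophil protein, was at 0 in all 421 cells, and S100A7L2, S100G and ANXA13 were above 0 in 1, 2 and 4 cells. S100A9, S100Z, S100A7, S100A5, S100A3, ANXA2R, S100A4 and S100A2 were above 0 in 10, 17, 19, 23, 32, 39, 43 and 75 cells. S100A8, the calprotectin subunit paired with S100A9, was unlike them in being above 0 in 209 cells, yet never above 16.7 RPM, and its unit levels lay between 0.05 and 0.96. S100A4, known as a marker of motile mesenchymal cells, reached only 0.32 and 0.48 in extraembryonic-mesenchyme-like cells, and its highest cell was at 537 RPM. S100A2 was at 0.28, 1.61 and 1.13 in hypoblast-like cells of E07 to E09.

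S100PBP, named for binding S100P, did not move with it. It was at 6.28, 5.97 and 5.15 in early epiblast-like cells, at 5.33, 5.44, 5.67 and 5.16 in late ones, and r with S100P over the units was 0.19 (rho = 0.22). It gave no call in the main fit of the 5 comparisons. The nearest to a call were extraembryonic-mesenchyme-like cells, with -1.24 ± 0.49 (limma adjusted p = 0.063). Trophectoderm-like cells followed, with -1.04 ± 0.40 (limma adjusted p = 0.065). There S100PBP was called lower with a pseudocount of 10 RPM and on the log2 of the mean RPM. It was also called lower without epiblast-like E09 or without trophectoderm-like E09. Its difference in trophectoderm-like cells was -2.17 within the code MS02 and -0.71 within MS03.

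Partners and relatives of the 2 families, in membrane repair, cortical linkage and plasminogen activation, were taken as a list of 32 genes of which 30 were tested. In hypoblast-like cells 11 were higher and 1 lower, beside 10.8% and 12.9% of all genes, and in trophectoderm-like cells 13 and 0, beside 9.51% and 12.6%. In extraembryonic-mesenchyme-like cells 12 were higher and 2 lower, beside 12.2% and 14.3%, and in gastrulating-like cells 4 and 0, beside 1.99% and 3%. In ESC cultures 10 were higher and 0 lower, beside 9.76% and 2.29%. At an unadjusted p under 0.05, limma gave 2 lower genes of the list in trophectoderm-like cells, 3 in gastrulating-like cells and 2 in ESC cultures. The list's medians in the order of these comparisons were 0.55, 0.65, 0.69, 0.18 and 0.54, beside -0.11, -0.12, -0.13, -0.13 and 0.26 for all genes.

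The hypoblast-like and trophectoderm-like comparisons share their epiblast-like days, and the ESC comparison shares those of the mesenchyme-like and gastrulating-like ones. Likeness across the 5 is therefore not independent. AHNAK, the large scaffold that binds the ANXA2 and S100A10 complex, was higher in each comparison, by 3.79 ± 0.42, 3.24 ± 0.42, 6.11 ± 0.52, 3.08 ± 0.52 and 2.61 ± 0.39. RDX, which ties actin to the membrane, was higher by 3.33, 2.17, 2.17, 1.82 and 1.05, and SDC4, a syndecan, by 1.68, 1.32, 2.29, 1.19 and 1.93 (limma adjusted p for the 3 genes at most 0.045). MYOF, a ferlin of membrane repair, was higher by 2.00, 1.96 and 4.97 in the first 3. The calpain CAPN2 was higher by 6.25 ± 0.41 in hypoblast-like cells (limma adjusted p = 4.3e-10). It was also called higher in trophectoderm-like cells (2.64), mesenchyme-like cells (4.10) and ESC cultures (2.16), but not in gastrulating-like cells (0.08). In trophectoderm-like cells the calpain inhibitor CAST was higher by 4.24 ± 0.55 (limma adjusted p = 5.6e-06), while in hypoblast-like cells it was at -0.25 ± 0.55 (limma adjusted p = 0.82). CAST was also called higher in mesenchyme-like cells (3.77) and ESC cultures (1.97), but not in gastrulating-like cells (1.20).

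The ANXA2 and S100A10 complex is also known as a surface receptor for plasminogen and its activator. Of that system, PLAT and PLAU were higher by 5.88 ± 0.68 and 6.31 ± 0.66 in extraembryonic-mesenchyme-like cells (limma adjusted p = 7.7e-07 and 1.6e-07). In ESC cultures PLAT was higher by 2.04 ± 0.52, PLAU by 3.67 ± 0.50 and the urokinase receptor PLAUR by 2.86 ± 0.48 (limma adjusted p = 0.013, 5.5e-05 and 0.00052). In hypoblast-like and trophectoderm-like cells none of the 3 passed, with differences between -0.81 and 0.72. In the mesenchyme the 2 lower genes were SRI, a penta-EF-hand protein, at -1.41 ± 0.32, and CACYBP, which binds S100A6, at -1.15 ± 0.32 (limma adjusted p = 0.0019 and 0.010). In hypoblast-like cells the lower gene was CALM2, a calmodulin gene, at -0.72 ± 0.24 (limma adjusted p = 0.031).

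The genes outside the families whose levels were most like S100P over the 20 units, of 12087 ranked by Pearson r, were TFCP2L1 (0.980), CDX1 (0.965), NMI (0.963), PHOSPHO1 (0.963) and LOC102120061 (0.963). Those most like ANXA8 were SHISA5 (0.972), LOC102121321 (0.954), MTUS1 (0.951), LOC102128426 (0.944) and GABRG3 (0.941). The units share days and title codes, and these values describe likeness of pattern only.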

How the data were processed

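SC3-seq, a 3′-end method for single cells, was applied to 421 monkey cells (mouse cells of the study were not used here). The deposited values are RPM per gene and cell; the submitters' processing notes name cutadapt 1.3, TopHat 1.4.1 and Cufflinks 2.2.0, while their roles, the monkey build and how reads were counted were not stated in those notes. Of 29095 rows, 298 without values were dropped. Depth was estimated from the step between low RPM values (at least 0.01 RPM).

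The embryo cells were clustered (scanpy 1.11.5, Leiden resolution 1, 2000 variable genes without the members, 12 components, 10 neighbours) and clusters named where over 50% of a class's detected markers, and at least 3, were higher by 1 or more on the log2 scale with a cluster mean of at least 3. No doublet caller was run. Log2(RPM + 1) was averaged over the cells of a class on a day, or of a culture, with at least 5 cells. The 20 such units of the groups compared entered a limma 3.58.1 fit (R 4.3.3, eBayes with trend). Tests were two-sided, with Benjamini-Hochberg over 12087 genes with a level of at least 2 in at least 2 units and a threshold of 0.05. The fit was also run on simulated units with independent noise. These share no day or title code, so they cannot show how such sharing affects the tests. Differences are on the log2(RPM + 1) scale, which understates changes of low genes. Classes and tests use the same cells, though not the same genes for the members.

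Every member was accounted for, with values per unit for members past a test (at most 10 each way), S100P, ANXA8 and the pairs ANXA2 with S100A10 and ANXA1 with S100A11. The 5 genes most like S100P and ANXA8 were ranked by Pearson r. Members, lists, marker genes and rules were chosen with earlier results of these data known. Alternatives were another pseudocount (10 RPM), no filter, log2 of the mean RPM, quantile normalization, only the groups compared, the embryonic day as a replicate block, at least 10 cells per unit, other clusterings, single title codes and leaving out each unit. Units of the same labelled embryonic day were taken as paired in the block. Same-day deviations of epiblast-like and other classes correlated at 0.11 to 0.26 for hypoblast-like and 0.10 to 0.24 for trophectoderm-like cells. The RefSeq tables, of an assembly that may differ from the authors', gave names and neighbours only.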

Additional observations from a re-analysis of the deposited data

Results flagged for a closer look

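ANXA1 in epiblast-like cells stood at 1.35 on E16 and between 0.25 and 0.40 on E13, E14 and E17, a gap wide enough to mark E16 as standing apart among the 4 late days, where chance marks about 1 in 20 such groups. The gap was sought in each of the 16 members that passed the filter, so a single mark may come by chance. On the same day the mesenchymal genes COL3A1, LUM and DCN were at 4.88, 2.79 and 2.79 in epiblast-like cells, against at most 1.24, 0.79 and 0.27 on the other late days, and all E16 cells carry the codes MS08 or MS09. Their part in the ANXA1 level was not tested.

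A further 4 values come from cells that entered no comparison and lie above every unit that did. In trophectoderm-like cells of E14, S100A4 was at 2.41, against at most 1.15 in the compared units. S100A5 was at 3.03 in the same 9 cells, against at most 1.64, and ANXA3 at 6.73, against at most 5.41. In the unnamed E14 cells led by SPP1 and T, ANXA3 was at 7.58. ANXA3 is itself among the leading genes of that cluster, so its level there is a description.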

How the results depend on the processing

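The 6 calls of extraembryonic-mesenchyme-like cells kept their direction and side of the threshold under the alternatives tried, except S100A6 without epiblast-like E14. With units of at least 10 cells (among early epiblast-like days, E08 alone), calls fell to 894 genes and 6 members for hypoblast-like, 880 genes and 7 members for trophectoderm-like, and 164 genes and 0 members for ESC cultures (2866 and 12, 2667 and 11, and 1457 and 6 in the main fit). For ESC cultures, 3 members were called without a filter, with quantile normalization and on the log2 of the mean RPM (903 genes), and 2 in a fit of only the groups compared. For gastrulating-like cells, 2 members were called with a pseudocount of 10 RPM, without a filter and in a fit of only the groups compared (201 genes, against 603). Leaving out each unit in turn gave 2135 to 2452 genes and 10 to 13 members for hypoblast-like, 1945 to 2439 and 10 to 12 for trophectoderm-like, and 767 to 1481 and 3 to 5 for ESC cultures. It gave 2006 to 2767 and 5 to 6 for mesenchyme-like cells and 277 to 551 and 2 to 3 for gastrulating-like cells, where a lone day is assumed to vary like the other groups. In ESC cultures within the code MS11, ANXA3 (-1.33) and ANXA2 (-0.36) turned direction. The cause of these changes was not tested.

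With the embryonic day as replicate block, 9 and 3 members stayed higher and lower in hypoblast-like and 10 and 1 in trophectoderm-like cells, gastrulating-like cells gave 1073 genes instead of 603, and beside ANXA10 in gastrulating-like and mesenchyme-like cells the block changed no other call of a member. Same-day correlations were 0.26 for mesenchyme-like and 0.34 for gastrulating-like cells, each from 2 days. No block was possible for ESC cultures. The edgeR alternative was not run, since the values are RPM and not counts. With a pseudocount of 10 RPM the late minus early epiblast difference was -6.56 for S100P and -5.07 for ANXA8. Days of 5 cells limit the early epiblast-like values of E07 and E09.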
